A study of Solanum lycopersicum with 24 samples.

Results

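MACROCALYX (MC, locus Solyc05g056620, described as "macrocalyx" in the authors' deposited tables) is the APETALA1-like MADS-box gene of tomato. It was picked by its locus ID, as 1 of the 34075 genes in the deposited expression table, and it was followed over all 8 groups of the series. AP1-type proteins are MADS-box transcription factors that act with related FRUITFULL-like and SEPALLATA-like partners when a shoot meristem changes to making inflorescences and flowers. In tomato, MC is known for keeping the inflorescence from reverting to leafy growth, for limiting the size of the sepals, and for its part in forming the abscission zone of the flower stalk. Tomato mutants that lack MC function bear large, leaf-like sepals.

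RNA was sequenced from shoot meristems of tomato (Solanum lycopersicum), grown in a greenhouse, of the mutant slful and of wild type (WT). The deposited legend writes slful as ful1/ful2/mbp10/mbp20, that is, with 4 FRUITFULL-like genes mutated, and how each was mutated is not stated in the labels or the legend. MC is not among the genes named in that genotype. The 4 stages are VM, a meristem still making leaves, TM, a meristem in transition to flowering, FIM, a floral meristem collected along with its inflorescence meristem, and SFIM, the same pair on the sympodial shoot. Each of the 8 groups held 3 libraries described as biological replicates, 24 in all, and each library pooled 30 to 60 meristems from many plants. Levels are in RPKM, that is, read numbers scaled by gene length and by the mapped reads of the library, a scale on which genes of different length can be compared. In pooled meristems, fewer cells that express a gene and less RNA per cell cannot be told apart.

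The libraries held between 12.9 and 90.4 M mapped reads (M for mega), as recovered from the steps between RPKM values. The VM and SFIM columns were written with fewer decimals than the TM and FIM columns, so a step between these pairs of stages also crosses 2 forms of export, and the stage and the form cannot be told apart in the steps from VM to TM, VM to FIM, FIM to SFIM and TM to SFIM. The FIM against TM and SFIM against VM comparisons lie within 1 form. The 3 loci listed as shoot meristem markers were detected in every library, with Solyc02g081120 between 136 and 248 RPKM. Of the 6 loci listed as flower organ genes, 4 never passed 0.299 RPKM. Of the others, Solyc02g084630 lay between 17.9 and 27.0 RPKM, and Solyc02g071730, described as Tomato AGAMOUS 1, ran from 0 to 10.7 RPKM. The loci listed as expanded leaf markers were also detected, with a sum between 194 RPKM in a WT SFIM library and 802 RPKM in a WT TM library. FUL1 (Solyc06g069430, described as FRUITFULL-like MADS-box 1), one of the mutated genes, was still transcribed in slful, at 8.43 to 11.8 RPKM from TM onwards, against 13.9 to 34.8 RPKM in WT. The deposited values do not show whether its protein was made.

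MC was at a low level in the vegetative meristem and among the more abundant transcripts at the later stages. At VM it ranked between 12628 and 15890 from the top of all genes in a library, at TM between 805 and 1004 in slful and between 1195 and 2683 in WT, and at SFIM between 408 and 450 over both genotypes. It was higher in slful than in WT at VM, and it was also higher in the average over the 4 stages. At TM and FIM the slful libraries all lay above the WT libraries without the difference passing the test over all genes, and at SFIM the genotypes overlapped.

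**Figure D1:**
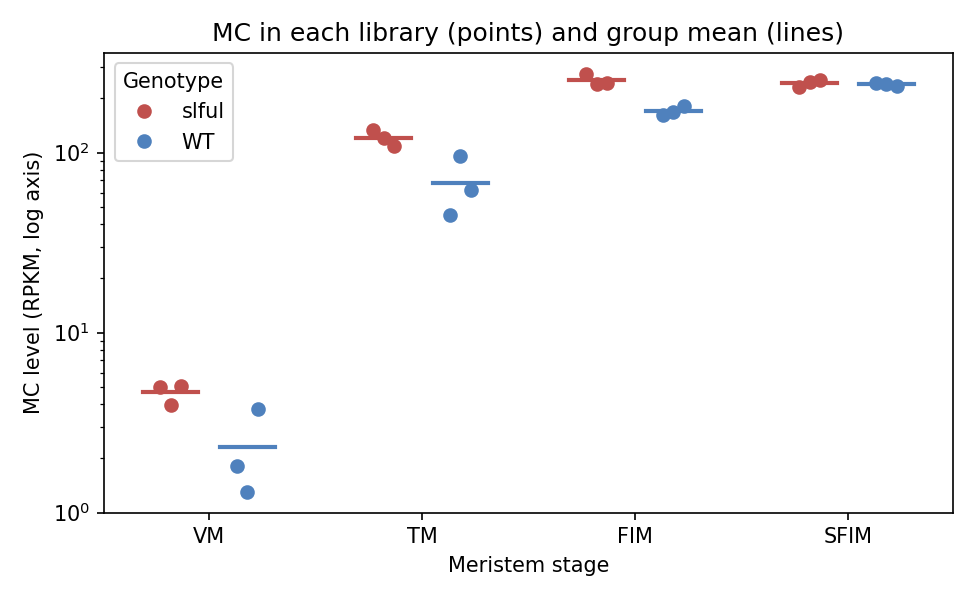
MC level in RPKM (log axis) in each of the 24 libraries (points) with the mean of each group (lines), slful left of WT at each stage. The slful points lie above the WT points at VM, TM and FIM and overlap them at SFIM, where both genotypes average close to 240.

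At VM, MC had 4.96, 3.95 and 5.07 RPKM in slful, against 1.82, 1.31 and 3.77 RPKM in WT. All 3 slful libraries were above all 3 WT libraries, but the highest WT library lay close to the lowest slful library. These levels rest on few reads, 163 to 207 in a slful library and 55 to 151 in a WT library. The exact 95% Poisson interval of slful replicate 2 (3.37 to 4.61 RPKM) overlapped that of WT replicate 3 (3.20 to 4.43 RPKM), and such intervals cover counting error only. MC averaged 4.66 ± 0.617 RPKM in slful and 2.30 ± 1.30 RPKM in WT (SD, n = 3 each). The difference was 0.97 on the log2(RPKM + 0.5) scale (SE 0.18, 95% confidence interval 0.59 to 1.36, adjusted p = 0.00568), and MC was called higher by limma at a Benjamini-Hochberg adjusted p under 0.05. Of all 18786 genes tested at VM, 1.67% were called in either direction. The call was lost without WT replicate 1 (difference 0.89, adjusted p = 0.0895), with 1 common spread for all groups (adjusted p = 0.0709) and with only the VM libraries in the fit (adjusted p = 0.286). The authors' deposited table for VM lists MC with a log2 fold change of 1.0 and a false discovery rate of 0.00915.

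At TM, MC had 134, 120 and 108 RPKM in slful, against 44.8, 95.4 and 62.0 RPKM in WT. The lowest slful library was above the highest WT library, and the WT libraries were spread more widely than the slful libraries. MC averaged 121 ± 12.8 RPKM in slful and 67.4 ± 25.7 RPKM in WT (SD, n = 3 each). The log2 difference of 0.90 (SE 0.28, 95% confidence interval 0.32 to 1.48) had an unadjusted p of 0.00415 and an adjusted p of 0.195 in limma, so MC was not called at TM, where 0.367% of the genes tested were called. The deviations of same-numbered slful and WT libraries correlated weakly at TM (0.155 to 0.228), against -0.313 to 0.149 for differently numbered ones, and the sample labels give no pairing. With the replicate number as a block the adjusted p was 0.0741 in limma and 183 genes were called in place of 69. MC was called at TM with 1 common spread for all groups (adjusted p = 0.0488) and with voom on the recovered reads (adjusted p = 0.0162).

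At FIM, MC had 274, 241 and 244 RPKM in slful, against 162, 168 and 181 RPKM in WT. The groups did not overlap. MC averaged 253 ± 18.2 RPKM in slful and 171 ± 9.68 RPKM in WT (SD, n = 3 each), and the log2 difference of 0.57 (SE 0.35, 95% confidence interval -0.16 to 1.29, adjusted p = 0.524 in limma) was not called, with 0.128% of all tested genes called. The unadjusted p was 0.118 in limma. The slful FIM libraries were the most variable group over all genes, and the test weights them down. Their median standard deviation was 0.233 on the log2 scale, against 0.112 in WT FIM. With only the FIM libraries in the fit, the SE of MC was 0.10, with an unadjusted p of 0.0011 and an adjusted p of 0.249 in limma. MC was not called at FIM under any of the 16 alternatives.

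At SFIM, MC had 232, 247 and 253 RPKM in slful, against 243, 241 and 233 RPKM in WT. The 2 groups overlapped and their means were 244 ± 11.1 RPKM in slful and 239 ± 5.20 RPKM in WT (SD, n = 3 each). The log2 difference was 0.03 (SE 0.18, adjusted p = 0.982 in limma), and its 95% confidence interval ran from -0.34 to 0.40, which leaves room for a change of that size in either direction. In this comparison 2.08% of genes were called.

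Averaged over the 4 stages, MC was higher in slful, with a log2 difference of 0.62 (SE 0.13, 95% confidence interval 0.35 to 0.88, adjusted p = 0.00935 in limma), and 2.76% of all genes were called in either direction. Without slful FIM replicate 2 the average was also 0.62, but its adjusted p was 0.111. Whether the genotype difference itself changed between stages was tested by the interaction. Its joint test gave an unadjusted p of 0.00833 and an adjusted p of 0.238, so a change was not shown over all genes. The difference at SFIM was 0.94 lower than that at VM (log2 difference -0.94, SE 0.26, adjusted p = 0.174), and it reached -1.30 with an adjusted p of 0.00278 without WT VM replicate 3, the WT VM library with the most MC.

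MC rose steeply between VM and TM in both genotypes. In slful, TM exceeded VM by a log2 difference of 4.55 (SE 0.23, adjusted p = 1.09e-12), a ratio of mean RPKM of 25.9, and in WT by 4.63 (SE 0.25, adjusted p = 5.43e-12), a ratio of 29.3. These rises ranked 14 in slful and 9 in WT among the 18786 genes tested, of which 32.8% were called in slful, 15.8% as higher at TM, and 25.4% in WT, 15.0% as higher. All 3 TM libraries lay above all 3 VM libraries in each genotype. Between these stages the lowest TM value was 44.8 RPKM and the highest VM value 5.07 RPKM, so the step is far larger than the spread between libraries.

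From TM to FIM, MC rose in WT, where FIM exceeded TM by 1.40 (SE 0.25, adjusted p = 0.000667, ratio 2.53). In slful the step of 1.07 (SE 0.37, adjusted p = 0.122, ratio 2.10) was not called, although all 3 FIM libraries lay above all 3 TM libraries. Called genes made up 3.41% in slful, 1.43% as higher at FIM, and 10.2% in WT, 4.71% as higher. The slful step was called under some other fits, and it passed without slful FIM replicate 1, with an adjusted p of 0.0277. From FIM to SFIM, the log2 difference in slful was -0.05 (SE 0.34, adjusted p = 0.974) and in WT 0.49 (SE 0.19, adjusted p = 0.0543), so neither was called, although the WT step passed under several other fits, against 3.34% of genes in slful and 31.7% in WT. SFIM against VM, within 1 export form, gave 5.57 in slful (SE 0.17, adjusted p = 3.61e-16, ratio 52.4) and 6.52 in WT (SE 0.19, adjusted p = 1.72e-16, ratio 104), where 47.8% of the genes tested in slful were called, 19.7% as higher at SFIM, and 44.4% in WT, 17.9% as higher. The 2 rises ranked 10 in slful and 4 in WT of all tested genes.

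The order of group means, low to high, was WT VM, slful VM, WT TM, slful TM, WT FIM, WT SFIM, slful SFIM and slful FIM. In this order slful VM stood apart from WT VM, and WT TM stood apart from slful VM (log2 difference 3.66, adjusted p = 7.79e-11). For 3 other pairs of neighbours the libraries did not overlap, but the difference missed the adjusted threshold in limma: slful TM over WT TM (0.90, adjusted p = 0.195), WT FIM over slful TM (0.50, adjusted p = 0.174) and WT SFIM over WT FIM (0.49, adjusted p = 0.0543). The libraries overlapped between slful SFIM and WT SFIM and between slful FIM and slful SFIM, and these neighbours did not differ beyond their spread.

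The related FRUITFULL-like genes give MC its context. The list of AP1/FUL-like loci holds 4 members beside MC, and its placement of loci, like that of the other lists, was made by locus ID with earlier results of these data known and is not paired with most loci in the deposited tables. FUL1, on this list, is mutated in slful. The legend's genotype names 4 FRUITFULL-like genes, and this list holds 4 loci. The deposited descriptions do not pair the loci other than FUL1 with those names. All of the listed loci may be mutated in slful, so their levels may not be those of intact genes. In slful relative to WT, 1 of the 4 was higher and 0 lower at VM, 1 higher and 1 lower at TM, 0 higher and 1 lower at FIM, and 1 higher and 2 lower at SFIM. Over all genes tested, the shares called were 1.31% higher and 0.351% lower at VM, 0.245% higher and 0.122% lower at TM, 0.0798% higher and 0.0479% lower at FIM, and 1.65% higher and 0.431% lower at SFIM. In the average over stages 1 of the 4 was higher and 2 were lower, where 1.87% of all genes were higher and 0.894% lower. The list's median log2 difference was -0.14 at VM, -0.25 at TM, -0.60 at FIM and -0.27 at SFIM, where the median of all genes tested was 0.01, -0.02, -0.07 and 0.02. FUL1 (Solyc06g069430) was lower in slful at TM (-1.02, adjusted p = 0.0428), at FIM (-1.41, adjusted p = 0.0305) and at SFIM (-1.25, adjusted p = 1.59e-05) in limma. Solyc02g089210, described as a MADS box transcription factor, was higher in slful at VM (1.31, adjusted p = 1.48e-08), TM (0.72, adjusted p = 0.0272) and SFIM (0.43, adjusted p = 0.0130). Solyc03g114830 was lower in slful at SFIM (-0.78, adjusted p = 0.000102), and Solyc02g065730 was called at no stage.

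**Figure D2:**
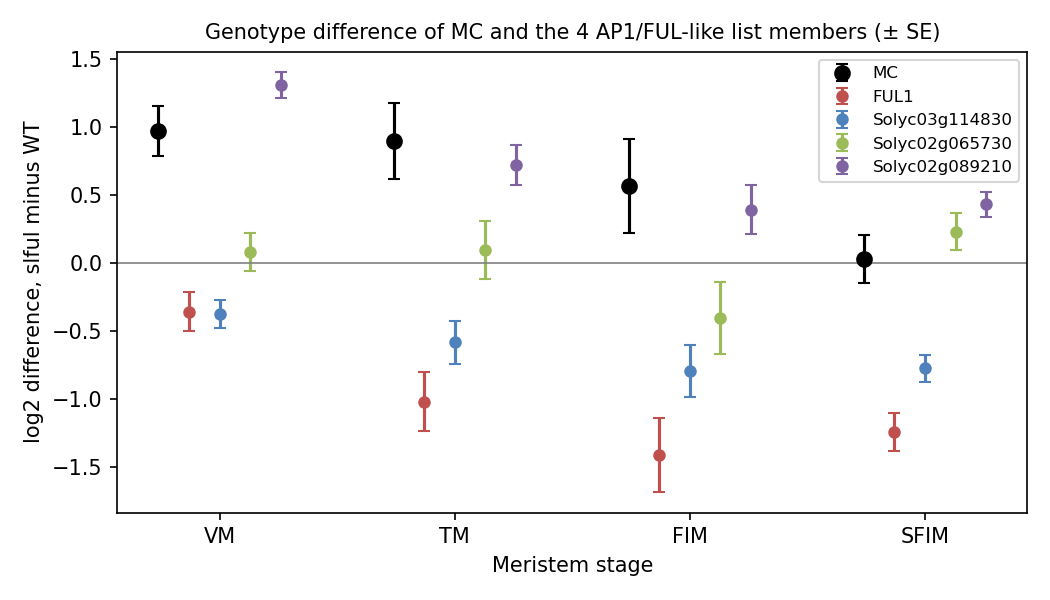
Difference between slful and WT (log2 scale, positive where higher in slful) of MC and the 4 AP1/FUL-like loci at each stage, with the standard error as bars. MC stands at 0.97 at VM, 0.90 at TM, 0.57 at FIM and 0.03 at SFIM, and FUL1 lies below 0 at each stage, down to -1.41 at FIM.

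MC and Solyc02g089210 were the genes of this group that were higher in slful at VM. MC is not named in the mutant genotype, whereas Solyc02g089210 may itself be one of the mutated genes. For Solyc02g089210 the genotype difference changed between stages (interaction adjusted p = 0.0152, with 0.192% of all genes called) and was smaller at SFIM than at VM by 0.87 (log2 difference of differences -0.87, adjusted p = 0.00324 in limma, with 0.154% of all genes called), against -0.94 with an adjusted p of 0.174 for MC. Its level in slful VM was 14.3, 13.8 and 14.3 RPKM, against 5.33, 5.33 and 5.57 RPKM in WT VM. These groups were tightly bunched and did not overlap.

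As a share of the summed RPKM of MC and the 4 AP1/FUL-like loci, MC took more at TM, FIM and SFIM than at VM in every library of both genotypes. The share was 14.8 to 18.0% in slful and 7.36 to 16.8% in WT at VM, 55.1 to 57.9% in slful and 41.3 to 46.3% in WT at TM, 72.8 to 74.2% in slful and 61.2 to 62.8% in WT at FIM, and 68.7 to 71.2% in slful and 67.1 to 70.7% in WT at SFIM. The libraries of the 2 genotypes did not overlap at TM and FIM and overlapped at VM and SFIM. A 2-sided exact permutation test gave p = 0.1 at TM and at FIM, the smallest that 3 against 3 libraries allow, with an adjusted value of 0.2 over the 4 stages, and p = 0.3 at VM and 0.4 at SFIM. The share is a ratio, and its denominator holds FUL1, which was lower in slful from TM onwards, and Solyc02g089210, which was higher in slful at VM, TM and SFIM. The 4 AP1/FUL-like loci may all be mutated in slful. They summed to 88.3 to 97.2 RPKM in slful TM and 63.8 to 111 RPKM in WT TM. At FIM they summed to 87.2 to 95.1 RPKM in slful and 96.0 to 115 RPKM in WT.

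**Figure D3:**
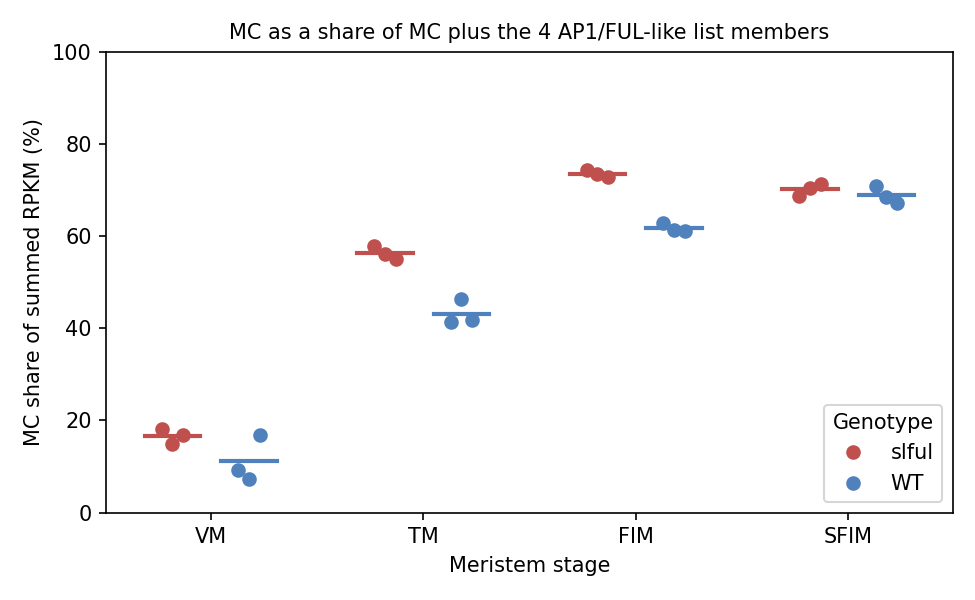
MC as a percent of the summed RPKM of MC and the 4 AP1/FUL-like loci in each library (points), with group means (lines), slful left of WT. In slful the share lies between 55.1 and 57.9% at TM, against 41.3 to 46.3% in WT, and the genotypes overlap at SFIM.

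The SEPALLATA-like list, whose products join AP1-type proteins in complexes in flowers, holds 6 loci, all tested. In slful relative to WT, 0 were called at VM, TM and FIM and 1 was higher at SFIM, namely Solyc02g089200, described as TM29 (0.97, adjusted p = 0.00431 in limma). Of all genes tested, 1.67% were called at VM, 0.367% at TM, 0.128% at FIM and 2.08% at SFIM. At TM relative to VM, 4 of 6 members were higher in each genotype, where 15.8% of all genes tested were higher in slful and 15.0% in WT. At FIM relative to TM, 5 of 6 were higher in each genotype, where 1.43% of all genes were higher in slful and 4.71% in WT. At SFIM relative to VM, 6 of 6 were higher in each genotype, where 19.7% of all genes were higher in slful and 17.9% in WT. From FIM to SFIM, 0 were called in slful, with a list median of -0.55, and in WT 1 rose and 3 fell, with a list median of -0.74. Over all genes tested, 3.34% were called at that step in slful and 31.7% in WT, in either direction. MC at that step had estimates of -0.05 in slful and 0.49 in WT, neither of them called.

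The SOC1/SVP-like list holds 5 loci of the flowering pathway upstream of or beside AP1-type genes. In slful relative to WT, 3 were higher and 0 lower at VM, 1 higher and 0 lower at TM, 1 higher and 0 lower at FIM, and 3 higher and 0 lower at SFIM. Of all genes tested, 1.31% were higher at VM, 0.245% at TM, 0.0798% at FIM and 1.65% at SFIM. Solyc01g093965, described as a MADS-box transcription factor, was higher in slful at every stage, by 0.99 at VM (adjusted p = 0.000119), 1.0 at TM (adjusted p = 0.0269), 1.68 at FIM (adjusted p = 0.00176) and 1.38 at SFIM (adjusted p = 9.69e-07). Solyc03g006830, with the same description, was higher at VM by 1.0 (adjusted p = 1.12e-05), and its interaction with stage was not called (adjusted p = 0.0889). Between TM and VM, 1 member rose and 2 fell in slful, and 2 rose and 2 fell in WT. Of the AP1/FUL-like loci, 4 of 4 rose at this step in both genotypes. Of all genes tested 32.8% were called in slful, 15.8% as higher at TM and the rest as lower, and 25.4% in WT, 15.0% as higher and the rest as lower.

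Of the 6 flowering and inflorescence loci, 0 were called between genotypes at VM, TM and FIM, and Solyc09g090180 was higher in slful at SFIM (0.72, adjusted p = 0.0176). In each genotype 4 of the 6 rose from VM to TM, a step at which 15.8% of all genes tested rose in slful and 15.0% in WT. Of the 6 flower organ loci 2 passed the filter on low values, and 0 of these were called between genotypes at any stage. The authors' deposited sheet for FIM does list Solyc02g071730 as higher in slful, with a log2 fold change of 1.36 and a false discovery rate of 0.0293. The 3 shoot meristem loci were not called between genotypes at any stage, with 2 of the 3 higher at TM than at VM in both genotypes, where 15.8% of all genes were higher in slful and 15.0% in WT. Of the 7 expanded leaf loci, 6 were tested and 0 were called between genotypes at any stage. At TM relative to VM, 0 of these 6 were called in slful, and 2 were higher and 0 lower in WT, where 15.0% of all genes were higher. Between genotypes, 1.67% of all genes tested were called at VM, 0.367% at TM, 0.128% at FIM and 2.08% at SFIM. With shares this low, lists this small would hold few calls, so the counts of 0 do not show that these loci were unchanged.

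The WT TM libraries differed from each other in MC and in the levels of several lists. In replicates 1, 2 and 3, MC had 44.8, 95.4 and 62.0 RPKM in WT TM, where the summed AP1/FUL-like level was 63.8, 111 and 86.5 RPKM, the summed SEPALLATA-like level 16.8, 37.1 and 17.5 RPKM, and the summed expanded leaf level 802, 518 and 299 RPKM. In slful TM the summed leaf level was 458, 314 and 323 RPKM, and the summed AP1/FUL-like level 97.2, 94.2 and 88.3 RPKM. WT TM replicate 1 was the lowest of the 3 WT TM libraries for 4 of 4 AP1/FUL-like, 3 of 3 shoot meristem, 4 of 6 flowering and inflorescence, 1 of 2 flower organ, 2 of 5 SOC1/SVP-like, 2 of 6 SEPALLATA-like and 0 of 6 leaf loci, and for 30.3% of all genes tested. Its part in the TM comparison was not tested beyond leaving it out, which gave a log2 difference of 0.64 and an adjusted p of 0.511.

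**Figure D4:**
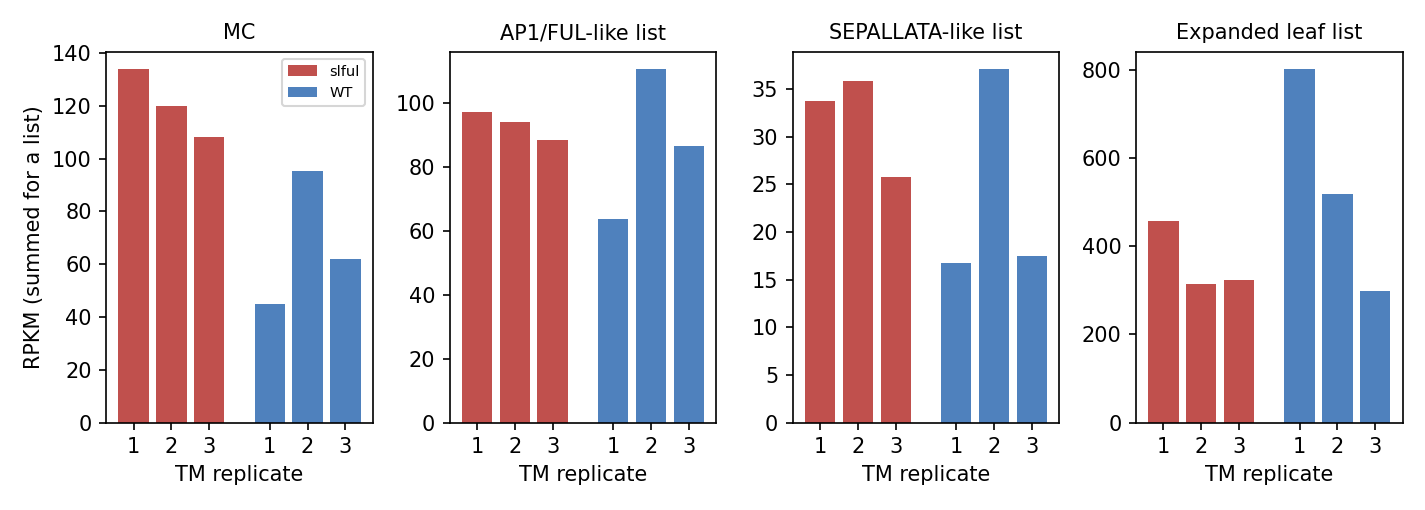
MC and the summed RPKM of 3 lists in the 6 TM libraries, slful replicates left of WT replicates. WT replicate 1 has the lowest MC (44.8) and the highest leaf sum (802), and WT replicate 2 the highest MC of the WT libraries (95.4).

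The genes most like MC were those with the highest Pearson correlation of log2(RPKM + 0.5) with it over the 24 libraries, given as a description because the libraries share groups and stages. The closest was Solyc02g093040 (r = 0.992), followed by Solyc04g005320 (r = 0.989), which is on the SEPALLATA-like list, and Solyc04g078460 (r = 0.984). The other 7 of the 10 highest were Solyc04g010320, Solyc01g080960, Solyc09g019980, Solyc01g098500, Solyc08g014000, Solyc09g005400 and Solyc06g083470, with the last at 0.979. None of the 10 has a deposited description. Within the 12 libraries of one genotype, r lay between 0.980 and 0.997 in slful and between 0.979 and 0.992 in WT, and over the 8 group means between 0.986 and 0.999. High correlations with MC were not limited to these 10 genes. Of the 18785 genes compared with MC, 321 had an r of at least 0.9 and 95 an r of at least 0.95. With Spearman's correlation, 2 of these 10 genes were again among the 10 highest.

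**Figure D5:**
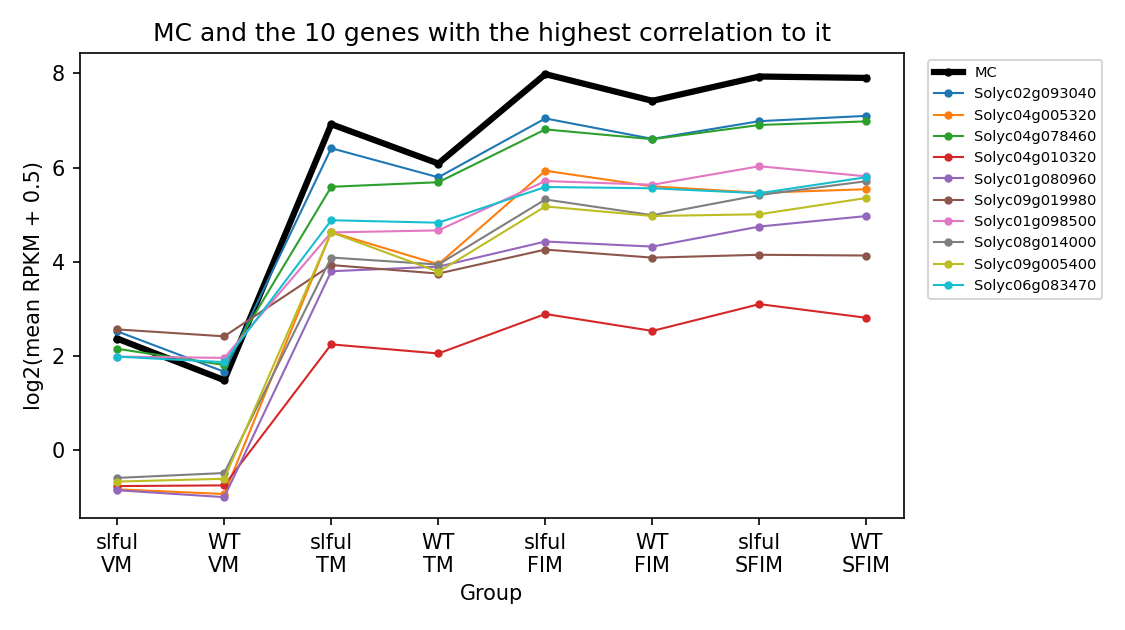
Mean level of MC (thick line) and of the 10 genes most like it in each of the 8 groups, as log2(mean RPKM + 0.5), slful left of WT at each stage. All 10 genes lie lower at VM than at TM in both genotypes, as MC does.

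Solyc02g093040 had 5.17, 4.97 and 5.59 RPKM in slful VM, against 2.55, 2.59 and 2.86 RPKM in WT VM, so its slful libraries all lay above the WT libraries. Its log2 difference between slful and WT was 0.86 at VM and 0.49 in the average over stages. The value at VM was the highest of the 10 genes most like MC, which ranged from -0.10 with a median of 0.10. These values are a description with no test, since the genes were picked for their likeness to MC over the same libraries. Solyc02g089210 ranked 47 in likeness to MC (r = 0.967) and FUL1 ranked 648 (r = 0.837), although FUL1 followed MC more closely within a genotype, with r = 0.975 in slful and 0.970 in WT.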

How the data were processed

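The authors deposited 1 table of RPKM values for 34075 genes in 24 libraries, named RPKM per the deposited legend although the table's title speaks of raw counts. The labels and file headers name no aligner, counter, strand setting or build. The authors' deposited sheets of slful against WT, 1 per stage, hold, per the file headers, a p-value with its false discovery rate, the change as log2, and the same change as a signed fold score (minus the reciprocal for a gene that is lower). Tested on the values, they keep genes that changed over 1 on the log2 scale, up or down, at a rate under 0.05, and MC is on the VM sheet.

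Genes that reached 0.5 RPKM in 3 or more libraries (18786) were tested in R 4.3.3 with limma 3.58.1 on log2(RPKM + 0.5), with 1 mean per group, 1 weight per group, a variance trend and Benjamini-Hochberg adjustment over all of them. Fold changes on this scale understate those of low genes. The group weights were set because earlier results of these data showed unequal spreads. The median standard deviation of a gene on the log2 scale was 0.233 in slful FIM and 0.0800 in slful VM. Whole reads were recovered from the RPKM steps for 25568 of the 25568 genes above 0, within 0.0033 of a read. A gene above 0 in few libraries meets this readily. Of the 22590 genes above 0 in at least 6 libraries, 22537 also had a whole length in bases. The recovered reads were used for depths, Poisson intervals and a voom alternative.

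The design text calls the replicates biological, each a pool over plants. The deviations of same-numbered slful and WT libraries correlated at 0.155 to 0.228 at TM, but at -0.015 to 0.138 at VM, -0.330 to 0.161 at FIM and -0.069 to 0.102 at SFIM. Differently numbered libraries gave -0.313 to 0.149 at TM and -0.428 to 0.439 at FIM, and the sample labels give no pairing. Correlations this weak do not show pairing, and the numbers were read as a possible pairing of libraries at TM alone. This reading was made after the values of the fits with the block were known, and the fit without it stayed the one reported. MC and the lists were chosen with earlier results of these data known. Genes were named as MC, list members, and the 10 highest and 5 lowest correlations with MC. Of 37 listed loci, 7 have a deposited description and 0 matched the RefSeq table of symbols that was held. Alternatives were other pseudocounts, filters, scalings, spreads and sample sets, a replicate block, and leaving out each library.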

Additional observations from a re-analysis of the deposited data

How the results depend on the processing

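Of 22 MC results, 13 kept their direction and side of the threshold under every alternative run. With 1 common spread, the log2 difference between slful and WT was 0.97 at VM (adjusted p = 0.0709) and 0.90 at TM (0.0488), and FIM against TM in slful was 1.07 (0.00279). With only the libraries compared, VM gave 0.97 (0.286), slful FIM against TM 1.07 (0.0232) and WT SFIM against FIM 0.49 (0.000972). With voom on recovered reads, TM gave 0.91 (0.0162), slful FIM against TM 1.10 (0.00849) and WT SFIM against FIM 0.53 (0.00270). WT SFIM against FIM was also called at 0.49 with a pseudocount of 1 (0.0336), at 0.57 with TMM factors (0.0349) and at 0.49 with a replicate block across stages (0.0243), which was added after seeing the data. The TM minus VM difference reversed to 0.0485 with a pseudocount of 1, and slful SFIM against FIM to 0.0317 with quantile normalization. The cause was not tested.

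Leaving out 1 library at a time gave 0.71 to 1.33 at VM, 0.64 to 1.18 at TM, 0.55 to 0.70 for the average, -1.30 to -0.68 for SFIM minus VM, -0.43 to 0.21 for TM minus VM, 0.99 to 1.14 for slful FIM against TM, -0.0832 to 0.00978 for slful SFIM against FIM, and an interaction adjusted p of 0.0178 to 0.373. With a replicate block within stage, the adjusted p of MC was 0.0108 at VM, 0.0741 at TM, 0.655 at FIM, 0.979 at SFIM and 0.0167 for the average, and no call changed. Genes called numbered 49 to 366 at VM (313 as reported), 4 to 339 at TM (69), 1 to 284 at FIM (24) and 15 to 409 at SFIM (391). At VM, MC had few reads, 55 to 207 in a library, and the WT libraries also differed by more than their 95% Poisson intervals. These were 1.43 to 2.27 RPKM in WT replicate 1, 0.984 to 1.70 RPKM in replicate 2 and 3.20 to 4.43 RPKM in replicate 3. The cause of that spread was not tested.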

Other observations

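The 5 genes whose pattern ran most against MC were Solyc09g097780 (r = -0.968), Solyc08g080960, Solyc12g056150, Solyc05g054030 and Solyc07g005680 (r = -0.953), none with a deposited description. Solyc09g097780 averaged 27.1 RPKM in slful and 40.5 RPKM in WT at TM, against 87.6 RPKM in slful and 89.3 RPKM in WT at VM. Of all other genes, 141 had an r of at most -0.9. On the shoot meristem list, Solyc02g083950 ranked 29 in likeness to MC (r = 0.973). With Spearman's correlation 2 of the 10 most like and 0 of the 5 least like genes were shared, with a pseudocount of 0.1, 5 and 3, and with 1, 10 and 4.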
